A study of Bos taurus with 20 samples.

Results

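Collagens, laminins and the glycoproteins and proteoglycans that bind them were followed in mammary gland tissue of dairy cows during experimental Escherichia coli mastitis. They were represented by 76 of the 24016 probe sets of the Affymetrix Bovine Genome Array that are not controls. Members were taken by gene symbol alone, from the platform annotation: every probe set with 1 symbol that starts with COL or with LAMA, LAMB or LAMC and a digit, and those for FN1, SPARC, DCN, LUM, BGN, FBN1, ELN, POSTN, TNC, NID1, HSPG2, LOX and FMOD. The 76 probe sets stood for 41 genes, with 48 probe sets for 23 collagen genes and 11 for 5 laminin genes.

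The extracellular matrix of the mammary gland has a basement membrane under the secretory epithelium, around myoepithelial cells and around vessels, built of type IV collagen, laminins, nidogen and perlecan, and an interstitial stroma of fibrillar collagens, mainly types I and III. Small leucine-rich proteoglycans coat the fibrils and set their spacing, and elastic fibres are built on fibrillin and elastin. Fibronectin and tenascin C belong to the provisional matrix that is laid down in inflamed or wounded tissue, in part by fibroblasts and macrophages, and fibronectin also circulates in plasma.

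The 20 arrays came from the 4 mammary glands of the udder, 1 array per gland, of each of 5 Holstein Friesian cows in mid lactation. In each cow 1 gland was not challenged (NC), 1 was challenged with 100 CFU of the E. coli strain ECC-Z and not treated (CNT), and the rear glands were challenged with the same dose and infused with 300 mg of the cephalosporin cefapirin (CF) or with 300 mg cefapirin and 20 mg of the glucocorticoid prednisolone (CFPD). Infusions were given at 4 h and 12 h post challenge, and in cows kept longer also at 24 h and 36 h. Tissue was taken at 24 h from cows 4 and 5 and at 48 h from cows 1, 2 and 3, so that each group held 2 glands at 24 h and 3 at 48 h, and NC glands shared their cow with 3 challenged glands. NC was the right front and CNT the left front gland in every cow, so group and position cannot be told apart. GEO's labels name the cisternal region and the study's methods the mid parenchyma as the site of sampling. Milk protein and other secretory epithelial genes had a mean log2 level between 14.8 and 15.3 on every array, at the top of the range of the platform.

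The labels CF and CFPD are in doubt for cows 2 and 5. These labels put CFPD in the left rear and CF in the right rear gland, the reverse of cows 1, 3 and 4, and the counts of calls and main fold changes for CF and CFPD against CNT are therefore also given with the labels of these cows exchanged. At 48 h the CNT gland of cow 2 stood apart. It held the highest of the 12 values for 19 of the 39 matrix probe sets tested at that time and the lowest for 11, against 28.5% and 19.4% of all probe sets tested, and results that rest on it are given with and without it.

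Values are log2 RMA values, so that a difference of 1 is a 2-fold change, and levels are compared between glands and never between probe sets. A probe set was tested if no fewer than 2 arrays of 24 h, or 3 of 48 h, had it above their own median. This left 39 of the 76 matrix probe sets at each time, 37 at both and 35 at neither, and 10 genes had no probe set tested (COL5A2, COL11A2, COL4A3, COL18A1, COL9A1, COL10A1, COL13A1, COL21A1, NID1 and LOX). Of the 35, 30 were never above the median of any array, with means between 2.75 and 6.997 over the 20 arrays. POSTN and TNC were not tested at 48 h. At 24 h TNC passed only through its 2 CNT glands, the group in which it is high, and POSTN through the CNT and CF glands of cow 4. A call required a limma p-value, Benjamini-Hochberg adjusted over all tested probe sets, below 0.05 and a change of at least 2-fold. As the 4 glands of a cow share the animal, every fit was also made with the cow as a block, and the calls of both fits are given. As whole tissue was measured, fewer cells of a type and less RNA per cell cannot be told apart.

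The first question was how the matrix genes of CNT glands differed from those of NC glands. At 24 h FN1 and TNC lay about 4-fold above NC in CNT glands, the small leucine-rich proteoglycans lay below NC, and most collagens and laminins lay slightly below NC. No matrix probe set was called at 24 h without the block (0 of 39, against 2.39% of the 13004 probe sets tested). With the block 5 of 39 were called, FN1 and TNC up-regulated and LUM, DCN and FMOD down-regulated, against 6.1% of all. Without TNC, whose entry to the test depended on its CNT glands, these were 4 of 38. At 48 h FN1 alone was called (1 of 39, against 2.66% of 13000), and with the block also both probe sets of COL3A1 (3 of 39, against 5.17%).

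**Figure D1:**
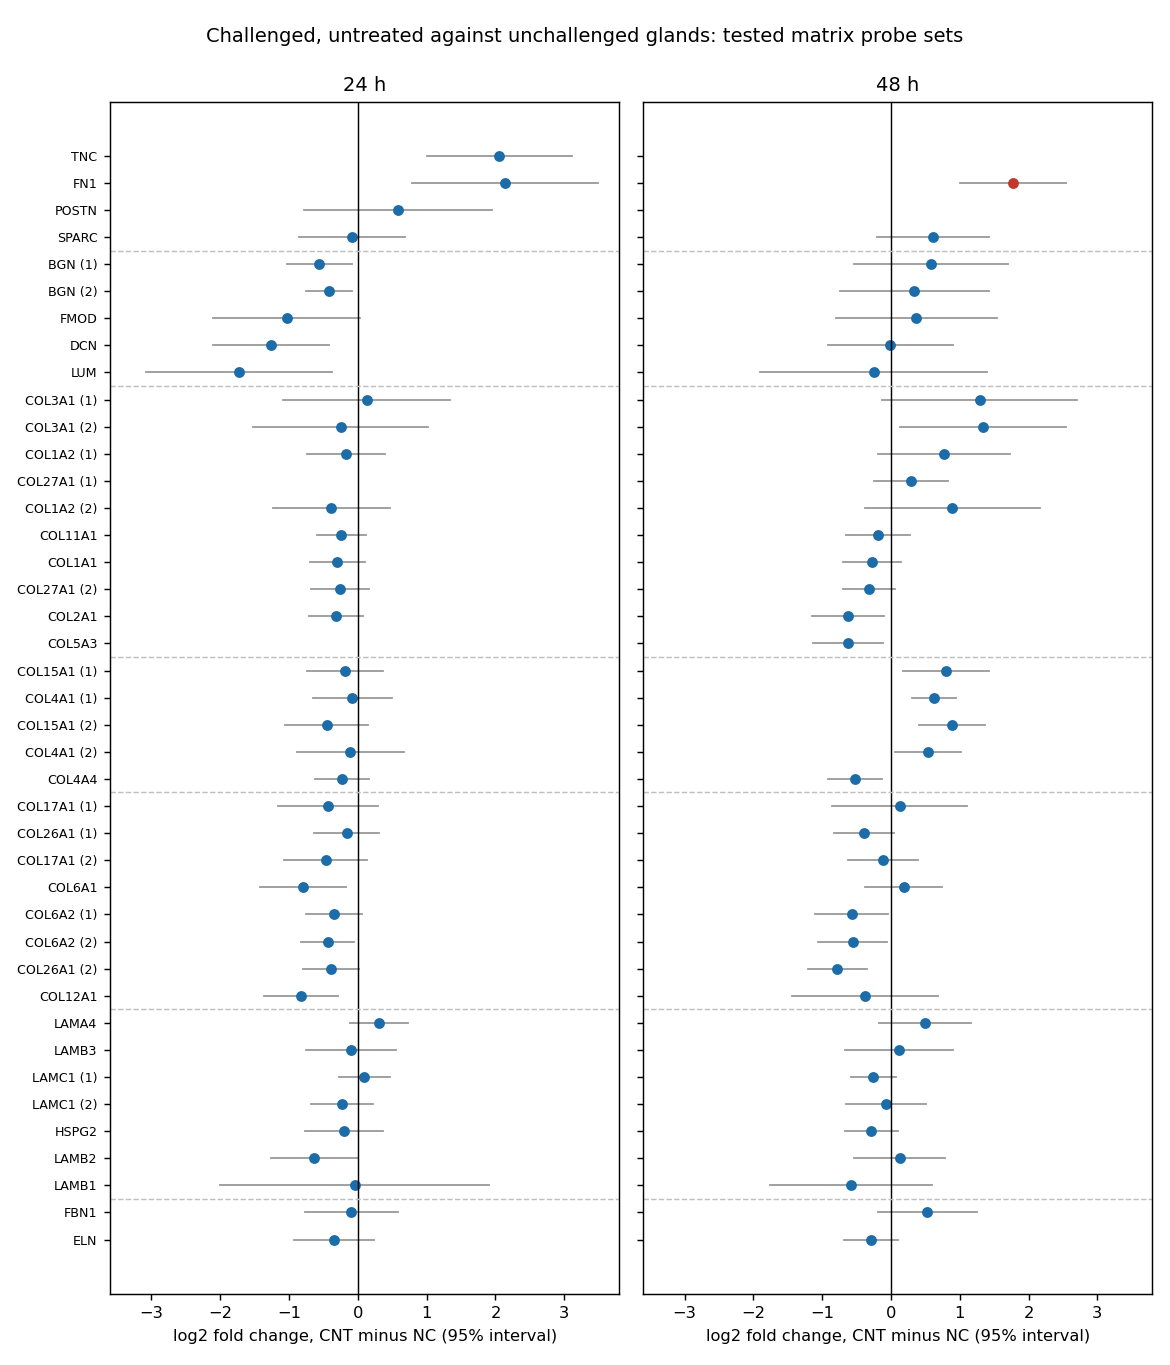
Log2 fold change of CNT against NC for each tested matrix probe set at 24 h (left, 2 glands per group) and 48 h (right, 3 glands per group), with 95% intervals. Red marks a call without the block, numbers after a gene tell its probe sets apart, and dashed lines divide, from the top, fibronectin and matricellular glycoproteins, small leucine-rich proteoglycans, fibrillar, basement membrane and other collagens, laminins with perlecan, and elastic fibre genes. At 24 h 33 of 39 points lie left of 0, at 48 h 19 of 39.

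Fibronectin (FN1), the adhesive glycoprotein of the provisional matrix, differed most. At 24 h it was at 8.82 and 8.11 in the NC glands of cows 4 and 5 and at 11.23 and 9.96 in their CNT glands. The log2 fold change was 2.13 (SE 0.57, n = 2 glands per group, limma adjusted p = 0.0973), a 4.39-fold difference, higher in 2 of 2 cows, and passed with the cow as a block (adjusted p = 0.00194). The NC and CNT glands did not overlap, and without the CNT gland of cow 4 the log2 fold change was 1.499.

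At 48 h FN1 was at 7.91, 8.14 and 7.63 in the NC glands of cows 1, 2 and 3 and at 9.03, 9.98 and 9.999 in their CNT glands. It was up-regulated by 1.77 on the log2 scale (SE 0.35, n = 3 per group, limma adjusted p = 0.0212), 3.42-fold, in 3 of 3 cows. The lowest CNT gland, of cow 1, lay above the highest NC gland. The adjusted p stayed below 0.05 with the CNT gland of cow 1 left out and lay between 0.0544 and 0.0855 when any other NC or CNT gland was left out, with a fold change of 1.61 to 1.89 in those fits. The other FN1 probe set lay between 3.60 and 4.56 on the 20 arrays and was not tested.

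Tenascin C (TNC), a glycoprotein that modulates cell adhesion in remodelled tissue, was at 5.99 and 5.74 in NC glands and 8.67 and 7.17 in CNT glands of cows 4 and 5. The difference of 2.05 (SE 0.45, n = 2) had a limma adjusted p of 0.0644, and of 0.00899 with the block. As the filter let TNC in only through CNT glands, the fit was repeated over all probe sets with no filter, where these were 0.0741 and 0.00905. The CNT gland of cow 4 was the highest of the 8, and without it the log2 fold change was 1.30. Without the CNT gland of cow 5 it was 2.81 and was called (adjusted p = 0.00556). At 48 h TNC lay below the filter, with NC glands at 5.65, 6.06 and 6.30 and CNT glands at 6.81, 6.77 and 6.73. All 3 CNT glands were thus above the 3 NC glands, by less than at 24 h. The other TNC probe set, not tested, showed no such difference and was at 6.78 and 6.98 in NC and 6.71 and 6.85 in CNT glands at 24 h, with CNT below NC in each of the 5 cows.

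Periostin (POSTN), which links collagen to other matrix proteins, passed the array median at 24 h only in the CNT and CF glands of cow 4. It was at 8.10 in the CNT and 7.22 in the CF gland of that cow and between 6.04 and 6.61 in the other 6 glands at 24 h. SPARC, a collagen-binding glycoprotein, differed between CNT and NC by -0.09 at 24 h (SE 0.32). At 48 h it was at 10.004, 10.10 and 9.93 in NC and at 10.29, 11.73 and 9.85 in CNT glands. Its difference of 0.61 became 0.06 without the CNT gland of cow 2.

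**Figure D2:**
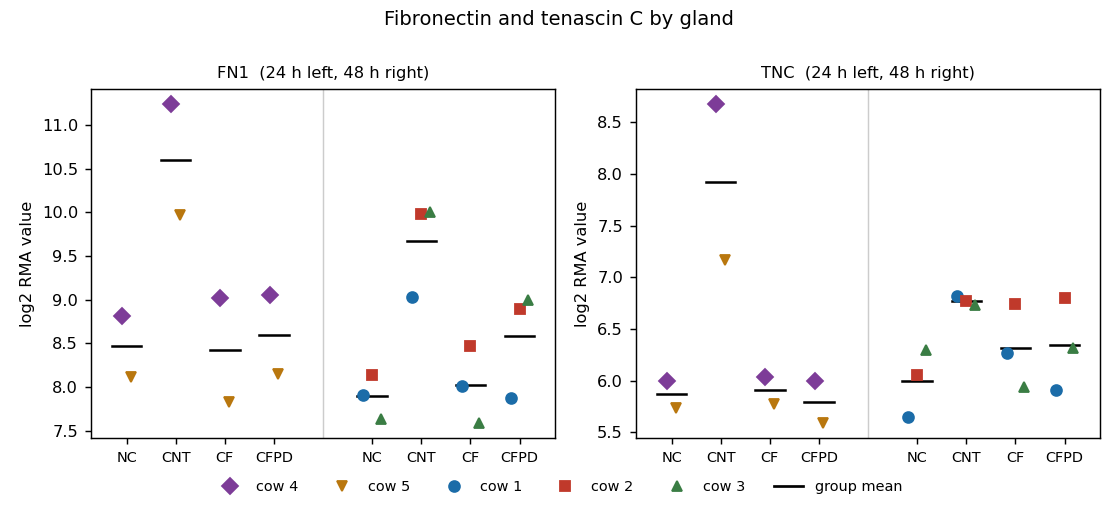
Log2 RMA values of FN1 and TNC in each gland, by group and time, with a symbol per cow and the group mean as a bar. FN1 lies between 9.03 and 11.23 in the 5 CNT glands and between 7.63 and 8.82 in the 5 NC glands, and TNC is highest in the CNT gland of cow 4, at 8.67.

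The small leucine-rich proteoglycans, which bind fibrillar collagen and govern the width of its fibrils, were the group with the lowest median at 24 h. All 5 probe sets lay lower in CNT than in NC glands in both cows, with a median log2 fold change of -1.04, against -0.25 for the 39 tested matrix probe sets and -0.0056 for all 13004. Lumican (LUM) was at 8.95 and 7.74 in the NC and at 6.97 and 6.26 in the CNT glands of cows 4 and 5. Its log2 fold change was -1.73 (SE 0.57, n = 2, limma adjusted p = 0.153, and 0.0027 with the block), 3.32-fold lower in CNT. The NC and CNT glands did not overlap, although cow 4 was above cow 5 in every group. Without the NC gland of cow 4 the log2 fold change was -1.12.

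Decorin (DCN) was at 10.80 and 10.22 in NC and 9.71 and 8.78 in CNT glands at 24 h. Its log2 fold change was -1.26 (SE 0.36, limma adjusted p = 0.11, and 0.00837 with the block), 2.4-fold lower in CNT, and -0.80 with the CNT gland of cow 5 left out. Fibromodulin (FMOD) was at 8.68 and 7.89 in NC and 7.62 and 6.88 in CNT glands. This was a log2 fold change of -1.04 (SE 0.45, limma adjusted p = 0.25, and 0.00738 with the block), and again the CNT glands were the lowest of each cow. It was -0.64 without the NC gland of cow 4 and -0.66 when the CNT gland of cow 5 was left out. Both probe sets of biglycan (BGN) differed less, by -0.56 and -0.42, short of 2-fold (limma adjusted p = 0.175 and 0.161, with the block 0.0269 and 0.0592).

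At 48 h the proteoglycans of CNT glands gave no common direction. LUM was at 8.66, 9.51 and 8.19 in NC and at 8.00, 9.83 and 7.79 in CNT glands of cows 1, 2 and 3. DCN was at 10.89, 10.32 and 10.36 in NC and at 10.89, 11.19 and 9.46 in CNT. Cow 2 lay above and cow 3 below their NC glands for both genes, and the log2 fold changes were -0.25 (SE 0.75) and -0.01 (SE 0.41).

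The CNT gland of cow 2 was highest of all 48 h glands for each of the 5 proteoglycan probe sets. BGN reached 12.06 there and lay between 9.32 and 10.19 in the other 11 glands, and FMOD reached 10.78. Without that gland the log2 fold changes at 48 h were -0.89 for LUM, -0.35 for DCN, -0.31 for FMOD and -0.45 and -0.23 for BGN. All 5 were then negative, and none had a limma adjusted p under 0.219.

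**Figure D3:**
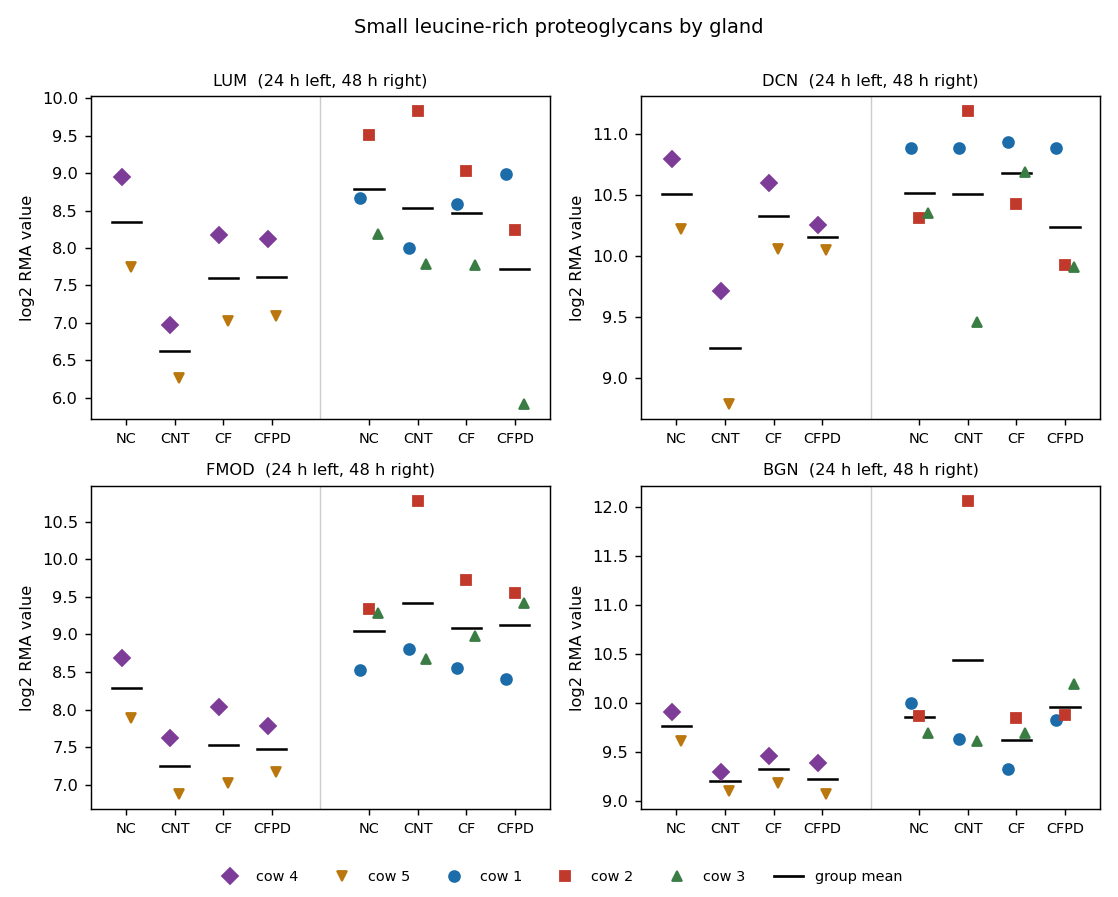
Log2 RMA values of 4 small leucine-rich proteoglycan genes in each gland, by group and time, with a symbol per cow and the group mean as a bar. At 24 h both CNT glands of LUM, DCN and FMOD lie below the gland of the same cow in every other group. At 48 h the CNT gland of cow 2 is the highest point of each panel.

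Fibrillar collagens form the tensile fibrils of the stroma. At 24 h 7 of the 8 tested probe sets lay lower in CNT than in NC glands, with a median of -0.25, and none passed in either fit. At 48 h 5 of 10 lay higher and 5 lower. COL3A1, the chain of type III collagen, was at 9.44, 10.07 and 9.30 in NC and 10.46, 12.44 and 9.92 in CNT glands of cows 1, 2 and 3 (its S2 probe set).

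Its log2 fold change was 1.34 (SE 0.55, n = 3, limma adjusted p = 0.166, and 0.0301 with the block). The S1 probe set of COL3A1 gave 1.29 (adjusted p = 0.246, and 0.0157 with the block). CNT was above NC in 3 of 3 cows for both, and the groups overlapped. Without the CNT gland of cow 2 the fold changes were 0.59 and 0.69. COL1A2, a chain of type I collagen, was at 8.69, 8.57 and 7.70 in NC and 9.09, 10.35 and 8.20 in CNT glands (S1 probe set), a difference of 0.89 (SE 0.58, limma adjusted p = 0.365, and 0.0487 with the block) that became 0.32 without that gland.

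The partner chain of COL1A2 in type I collagen differed little. The tested COL1A1 probe set was at 7.98, 8.16 and 7.78 in NC and 7.87, 7.93 and 7.31 in CNT glands, a log2 fold change of -0.27 (SE 0.19, limma adjusted p = 0.408). The tested probe sets of COL2A1 and COL5A3 differed by -0.62 each at 48 h, or by -0.36 and -0.44 with the CNT gland of cow 2 left out, and none of these 3 was called. COL5A3 lay near the filter, above the array median on only 3 of the 12 arrays of 48 h. In the CNT gland of cow 2 both COL2A1 (6.92) and COL5A3 (6.19) had their lowest value of the 12 glands, while COL3A1 and COL1A2 had their highest.

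Basement membrane collagens had a median log2 fold change of -0.19 at 24 h and 0.62 at 48 h. COL15A1, a collagen of the basement membrane zone of vessels and muscle, was at 9.59, 9.46 and 9.56 in NC and 10.19, 10.69 and 10.40 in CNT glands at 48 h for its probe set of higher mean. This difference of 0.89 (SE 0.22, n = 3, limma adjusted p = 0.0467) was 1.85-fold, short of the 2-fold limit, and every CNT gland lay above every NC gland. Without the CNT gland of cow 2 it was 0.76 (adjusted p = 0.127). The other COL15A1 probe set gave 0.80 (adjusted p = 0.119).

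COL4A1, a chain of the type IV network, was at 8.32, 8.23 and 8.40 in NC and at 9.11, 8.97 and 8.74 in CNT glands (S1 probe set). Its log2 fold change of 0.62 (SE 0.15, limma adjusted p = 0.0387) also fell short of 2-fold and was 0.61 without the CNT gland of cow 2 (adjusted p = 0.0863), and its S2 probe set gave 0.54. COL4A4, a chain found in specialised basement membranes, had a fold change of -0.52 (adjusted p = 0.11). It lay near the filter, above the array median on only 4 arrays of 48 h.

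At 24 h the COL15A1 probe set of higher mean lay lower in the CNT glands of both cows, at 9.15 and 9.34 against 10.01 and 9.39 in NC. The other was at 7.35 and 7.42 in CNT against 7.89 and 7.27 in NC, lower in cow 4 and higher in cow 5. For the first, the 48 h change exceeded the 24 h change by 1.35 on the log2 scale (SE 0.35, limma adjusted p = 0.307). None of the 41 matrix probe sets tested for this difference was called, with or without the block, against 0% and 0.2% of the 13486 tested. At an unadjusted p under 0.05 there were 5 of 41 matrix probe sets and 1052 of all. The times also differ in cows, so time and cow cannot be told apart.

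**Figure D4:**
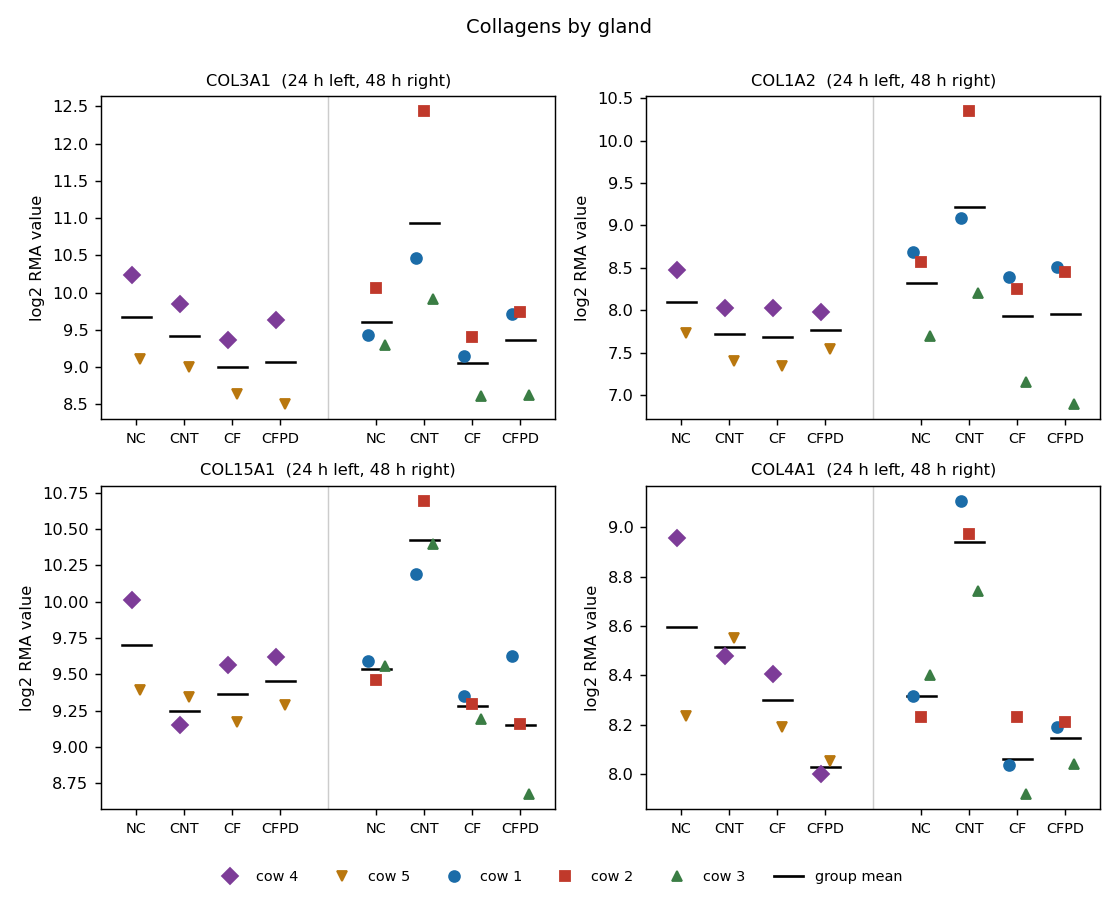
Log2 RMA values of COL3A1, COL1A2, COL15A1 and COL4A1 in each gland, by group and time, with a symbol per cow and the group mean as a bar. At 48 h the 3 CNT glands of COL15A1, 10.19 to 10.69, lie above all 9 other glands, while COL3A1 and COL1A2 are highest in the CNT gland of cow 2, at 12.44 and 10.35.

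The other collagens link fibrils, form beaded filaments or anchor epithelium. All 8 tested probe sets lay lower in CNT glands at 24 h, with a median of -0.44, and none was called. COL12A1, a fibril-associated collagen, was at 8.90 and 9.48 in NC and 8.35 and 8.38 in CNT glands, a log2 fold change of -0.82 (SE 0.23, limma adjusted p = 0.103). With the block its adjusted p was 0.0201, short of 2-fold. COL6A1, of the beaded filaments of type VI collagen, was at 10.12 and 9.66 in NC and 9.02 and 9.16 in CNT glands, a change of -0.80 (SE 0.26, adjusted p = 0.155, and 0.0346 with the block).

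At 48 h 1 of the probe sets of COL26A1 was at 7.80, 7.67 and 7.75 in NC and 7.02, 6.56 and 7.30 in CNT glands. It was lower in 3 of 3 cows, with a log2 fold change of -0.78 (SE 0.19, limma adjusted p = 0.0478) that fell short of 2-fold, and the other probe set gave -0.39 (adjusted p = 0.259). COL17A1, the transmembrane collagen of hemidesmosomes, differed by 0.13 at 48 h (SE 0.45), COL6A1 by 0.18 and the probe sets of COL6A2 by -0.57 and -0.56. With cow 2 represented by its other glands only, the differences were -0.26 for COL17A1, -0.14 for COL6A1 and -0.28 and -0.30 for COL6A2. The first COL26A1 probe set was then at -0.58 (limma adjusted p = 0.114) and the other at -0.17. The signs of COL17A1 and COL6A1 turned when each array was centred on its median.

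Laminins, the heterotrimers to which epithelial cells attach, had no call at either time in either fit. LAMB1, a beta chain, differed mainly between cows. It was between 8.42 and 8.70 in the 4 glands of cow 4 and between 6.83 and 7.27 in those of cow 5. Among tested matrix probe sets its range over the 5 NC glands, from 7.27 to 9.11, was the widest, and its SE at 24 h was 0.83. LAMB2 was lowest in the CNT gland of cow 4 (6.48, against 7.54 in NC) and gave -0.63 at 24 h (SE 0.27, limma adjusted p = 0.242) and 0.12 at 48 h, where its sign turned after centring.

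LAMA4, the laminin chain of vessels and muscle, differed by 0.30 at 24 h and 0.49 at 48 h, the latter 0.10 without the CNT gland of cow 2. LAMC1, the gamma chain most laminins share, differed by -0.24 and -0.08 for its probe set of higher mean. Perlecan (HSPG2) differed by -0.21 and -0.28. Fibrillin 1 (FBN1), the scaffold of elastic microfibrils, differed by -0.09 and 0.53, the latter 0.15 without that gland, and elastin (ELN) by -0.34 and -0.29.

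Over all tested members at 24 h 33 of 39 lay lower in CNT than in NC, 32 of 39 in cow 4 and 30 of 39 in cow 5. The NC gland of cow 4 held the highest value of the 24 h glands for 18 of 39, against 14.7% of all probe sets tested. The count over both cows was not repeated without that gland. At 48 h 20 lay higher and 19 lower, with a median of 0.113 against 0.126 over all tested probe sets, and 17 lay above that general shift. At an unadjusted p under 0.05 were 9 of 39 at 24 h (2 higher, 7 lower, 23.1%) against 20.7% of all, and 12 of 39 at 48 h (6 higher, 6 lower, 30.8%) against 24.3% of all. These shares are not far from those of all probe sets.

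Cow 2 differed from the others at 48 h. CNT exceeded NC for 24 of 39 matrix probe sets in cow 2, with a median difference of 0.72, for 21 in cow 1 (median 0.0032) and for 14 in cow 3 (median -0.08). Without the CNT gland of cow 2, 13 lay higher and 26 lower, 9 signs turned, the median was -0.22 against 0.106 over all, and none was called, against 1.75% of all. Marker genes outside the members were compared between that gland and the CNT glands of cows 1 and 3. The mean log2 level of 9 fibroblast markers was 7.66 in that gland and 7.498 and 7.61 in the others, and that of 9 myoepithelial and smooth muscle markers 10.85 against 10.31 and 10.42. Secretory markers were at 14.83 against 15.03 and 15.05, and 4 adipocyte markers at 6.44 against 6.64 and 6.78. Endothelial markers were at 7.32 against 7.48 and 7.47, neutrophil markers at 10.53 against 11.95 and 10.64, monocyte and macrophage markers at 9.25 against 9.52 and 9.37, and pan-leukocyte markers at 10.54 against 10.30 and 9.71. The part of these cell types in the values of that gland was not tested. Where genes had several tested probe sets these gave 1 sign for 7 of 9 genes at 24 h and 8 of 10 at 48 h.

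**Figure D5:**
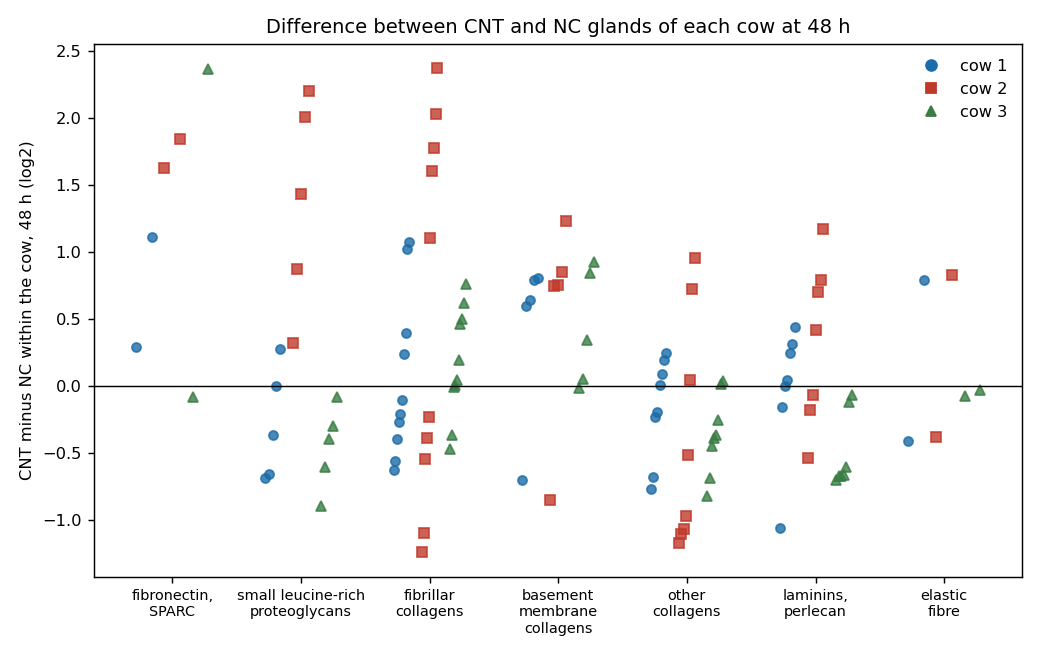
Difference between the CNT and the NC gland of the same cow at 48 h (log2) for each of the 39 tested matrix probe sets, grouped by role, with a symbol per cow. The median over the 39 probe sets is 0.0032 in cow 1, 0.72 in cow 2 and -0.08 in cow 3.

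The second question was how cefapirin, alone or with prednisolone, changed these genes in challenged glands. Both comparisons use the same CNT glands as the comparison with NC. At 24 h no matrix probe set was called for CF against CNT (0 of 39, against 2.14% of all) or CFPD against CNT (0 of 39, against 1.4%), and 9 and 7 had an unadjusted p under 0.05, against 21.4% and 18.5% of all. With the block 3 were called for CF (TNC and FN1 lower, DCN higher, against 5.91% of all) and 2 for CFPD (TNC and FN1 lower, against 4.97%). Without TNC these were 2 and 1 of 38, and with no filter its adjusted p with the block was 0.0102 for CF and 0.0097 for CFPD.

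FN1 was at 9.02 and 7.82 in the CF glands of cows 4 and 5 and at 9.05 and 8.15 in their CFPD glands, next to NC glands at 8.82 and 8.11. The log2 fold changes against CNT were -2.18 for CF and -2.00 for CFPD (SE 0.57 each, limma adjusted p = 0.0952 and 0.135, with the block 0.00193 and 0.00293). TNC was at 6.04 and 5.77 in CF and at 6.00 and 5.59 in CFPD glands, -2.02 and -2.13 against CNT (adjusted p = 0.0689 and 0.0705, with the block 0.00991 and 0.00995). For both genes each treated gland lay nearer to the NC than to the CNT gland of the same cow. With the labels of cow 5 exchanged, FN1 was at -2.01 for CF and -2.16 for CFPD and TNC at -2.11 and -2.04, and the calls with the block were 4 for CF, with LUM added, and the same count of 2 for CFPD.

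The group means of the proteoglycans in treated glands at 24 h lay between those of CNT and NC. LUM was at 8.17 and 7.03 in CF and 8.13 and 7.09 in CFPD glands at 24 h. This was above both CNT glands of the same cows and below their NC glands. DCN differed from CNT by 1.08 in CF (SE 0.36, limma adjusted p = 0.148, and 0.013 with the block) and by 0.91 in CFPD (adjusted p = 0.238, and 0.0258 with the block). FMOD was at 8.04 and 7.02 in CF and 7.78 and 7.17 in CFPD glands, against 8.68 and 7.89 in NC. With the labels of cow 5 exchanged the differences from CNT were 1.08 and 0.91 for DCN, 1.01 and 0.96 for LUM and 0.36 and 0.15 for FMOD, CF before CFPD.

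At 48 h 2 matrix probe sets were called for CF against CNT, FN1 and COL15A1, both down-regulated (2 of 39, against 1.64% of all). COL15A1 was called for CFPD (1 of 39, against 1.21%). With the block 5 were called for each treatment, both COL3A1 probe sets, FN1, COL1A2 (S1 probe set) and COL15A1, all lower than in CNT (against 3.98% for CF and 3.07% for CFPD). With the labels of cow 2 exchanged FN1 was not called for CF (log2 fold change -1.50, adjusted p = 0.0595), and the call of COL15A1 remained in both treatments.

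COL15A1 was at 9.35, 9.30 and 9.19 in CF and 9.63, 9.16 and 8.67 in CFPD glands of cows 1, 2 and 3, all below the lowest CNT gland at 10.19. The log2 fold changes were -1.15 for CF (SE 0.22, n = 3, limma adjusted p = 0.022) and -1.27 for CFPD (SE 0.22, adjusted p = 0.0167), in 3 of 3 cows each. Without the CNT gland of cow 2 they were -1.01 and -1.14 with adjusted p of 0.0735 and 0.0555. The adjusted p for CF was also 0.0583 and 0.116 without the CF glands of cows 1 and 3, and that for CFPD 0.0548 without the CFPD gland of cow 2. The call for CF was also lost after each array was centred on its median (-0.94, adjusted p = 0.0536) or quantile normalized again (-0.96, adjusted p = 0.0541). That for CFPD remained under both (adjusted p = 0.0388 and 0.0394). The other COL15A1 probe set was at -0.94 in CF and -0.89 in CFPD against CNT, short of 2-fold, and was not called.

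FN1 was at 8.01, 8.46 and 7.59 in CF and at 7.87, 8.89 and 8.996 in CFPD glands at 48 h. Against CNT this was -1.64 for CF (SE 0.35, limma adjusted p = 0.0378) and -1.08 for CFPD (SE 0.35, adjusted p = 0.15, and 0.0462 with the block). With the labels of cow 2 exchanged CFPD was at -1.22 (adjusted p = 0.151, and 0.0499 with the block). Without the CNT gland of cow 2, labels as given, CFPD was at -0.93. The CFPD glands of cows 2 and 3 lay above every NC gland, at 7.63 to 8.14. Centring and quantile normalization took the call for CF away (adjusted p = 0.0564 and 0.0636), as did leaving out the CNT gland of cow 2 (-1.49, adjusted p = 0.12) or of cow 3 (adjusted p = 0.0771) or the CF gland of cow 1 (0.101) or of cow 3 (0.184). COL4A1 (S1 probe set) was at -0.88 against CNT in CF (adjusted p = 0.0108) and at -0.79 in CFPD (adjusted p = 0.0234). Both were short of 2-fold, and they were -0.89 and -0.79 with the labels exchanged. With the labels as given, its S2 probe set was at -0.76 in CF and -0.66 in CFPD.

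COL3A1 was at 9.15, 9.40 and 8.61 in CF and at 9.71, 9.74 and 8.62 in CFPD glands (S2 probe set). The fold changes against CNT were -1.89 (SE 0.55, limma adjusted p = 0.0995, and 0.0107 with the block) and -1.58 (adjusted p = 0.171, and 0.0258 with the block). They were -1.14 and -0.83 when the CNT gland of cow 2 was left out, and -1.77 and -1.70 with the labels exchanged. COL1A2 (S1 probe set) was at -1.28 in CF and -1.26 in CFPD against CNT. Without the CNT gland of cow 2 these were -0.71 and -0.70. Its S2 probe set was at -0.89 and -0.84 with that gland kept. LUM was at 5.91 in the CFPD gland of cow 3, against 7.77 to 8.19 in the other glands of that cow, and the S1 probe sets of COL3A1 (7.54) and COL1A2 (6.89) also had their lowest value at 48 h there.

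Treated glands were also compared with NC glands and with each other. No matrix probe set and no probe set of the array was called in CF or CFPD against NC or in CFPD against CF at either time, with or without the block, by limma. At an unadjusted p under 0.05 there were 1 and 3 of 39 for CF and CFPD against NC at 24 h, against 0.815% and 1.98% of all. The other 4 comparisons had 0 of 39. Over all tested probe sets there were 82 and 43 of 13000 for CF and CFPD against NC at 48 h. For CFPD against CF there were 67 of 13004 at 24 h and 21 of 13000 at 48 h. With the block there were 11 of 39 for each at 24 h, against 3.63% and 5.88% of all, and 2 for CFPD against NC at 48 h, against 1.22%. At 24 h 25 of 39 lay lower in CF than in NC glands and 31 of 39 in CFPD, with median log2 fold changes of -0.14 and -0.22 against -0.02 and -0.0098 over all. The NC gland of cow 4, highest of the 24 h glands for 18 of 39, is part of both comparisons. For FN1 at 48 h CFPD exceeded CF in cows 2 and 3 and lay below it in cow 1. The order in cow 2 rests on its labels as given, which were not tested. A p above the threshold does not show that the treatments acted alike.

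Matrix genes outside the members were followed through lists of their own. Of 12 tested genes that process or cross-link collagen, TGM2, the transglutaminase that cross-links fibronectin among other proteins, was up-regulated in CNT at 24 h (log2 fold change 1.69, SE 0.23, limma adjusted p = 0.0262), and none was called at 48 h. Against CNT at 24 h, 1 gene of this list was called lower in CF and 1 in CFPD without the block. The lowest log2 fold changes of the list there were -1.70 and -1.50. With the labels exchanged TGM2 was at -1.57 in CF and -1.63 in CFPD at 24 h (limma adjusted p = 0.0367 and 0.0286). Of 16 other matrix proteins tested at 24 h OGN, a further small leucine-rich proteoglycan, was down-regulated (-1.64, SE 0.31, adjusted p = 0.0463). TGFBI, a matrix protein induced by transforming growth factor beta, was the only one of 18 called at 48 h (1.97, SE 0.30, adjusted p = 0.00697) and at 24 h was at 2.297 (adjusted p = 0.076, and 0.0273 with the block). TGFBI was down-regulated against CNT at 48 h in CF (-1.96, adjusted p = 0.00709) and in CFPD (-1.41, adjusted p = 0.0453), and with the labels exchanged was at -1.90 and -1.47 (adjusted p = 0.0112 and 0.048). No tested gene of the transforming growth factor beta pathway list was called for CNT against NC without the block, 0 of 6 at 24 h and 0 of 7 at 48 h. For CNT against NC, besides TGFBI at 24 h, 3 genes of these lists were called only with the block. LOXL4, a lysyl oxidase, was lower at 24 h (-1.19, adjusted p = 0.0225). At 48 h THBS1, a matricellular thrombospondin, was lower (-1.06, adjusted p = 0.0318) and TGIF1, a repressor of the pathway, higher (1.17, adjusted p = 0.0332). Against CNT at 24 h, the block added 1 higher and 1 lower call among other matrix proteins for each treatment. It also added 1 lower pathway gene for CFPD. At 48 h it added 1 lower collagen-processing gene for each treatment.

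The mean levels of the leukocyte marker lists moved with the group. The 4 neutrophil markers on the array had a mean log2 level of 7.02 to 7.77 in NC and 11.06 to 13.10 in CNT glands at 24 h, and of 6.56 to 7.75 and 10.53 to 11.95 at 48 h, and all 4 were called higher at both times. The 5 monocyte and macrophage markers had a mean between 7.71 and 8.30 in NC and between 8.53 and 9.67 in CNT glands at 24 h. Of the 4 tested, 3 lay higher and 1 lower (-0.51), with none called without the block and 2 called higher with it. At 48 h 3 again lay higher and 1 lower (-1.51). Without the block 2 were called higher, and with it 2 higher and 1 lower. The CNT gland of cow 4, highest for FN1, TNC and POSTN at 24 h, was also highest of the 5 CNT glands for neutrophil, macrophage and pan-leukocyte markers, at 13.10, 9.67 and 11.23. Their part in the differences of FN1 and TNC was not tested.

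Stromal and myoepithelial markers moved less. The 9 fibroblast markers had a mean log2 level of 7.56 to 7.83 in NC and 7.36 to 7.57 in CNT glands at 24 h, when the proteoglycans were lower, and of 7.58 to 7.79 and 7.498 to 7.66 at 48 h. Of the 7 tested at 24 h 2 lay higher and 5 lower in CNT, with a median log2 fold change of -0.16. None of the 7 was called without the block, and PDPN was called higher with it (1.30, adjusted p = 0.0152). The 9 myoepithelial and smooth muscle markers were at 10.54 in both NC glands and at 9.77 and 9.96 in the CNT glands at 24 h, and 8 of 9 lay lower, with CNN1, a smooth muscle calponin, called (-1.68, adjusted p = 0.0419). Treated glands at 24 h lay between 9.83 and 10.15 for this list. All 9 markers were lower than NC in CF and in CFPD, and none was called. Endothelial markers were between 7.27 and 7.34 in NC and between 7.32 and 7.48 in CNT glands at 48 h, when COL15A1 and COL4A1 were higher. The part of these cell types in the matrix differences was not tested.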

How the data were processed

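Each of 20 glands (5 cows) gave RNA for 1 Affymetrix Bovine Genome Array. The deposited values are log2 expression values that the authors computed from the scans with the Robust Multiarray Average (RMA), which corrects background, normalizes quantiles and summarises each probe set, with the affy package. Whether both times were normalized together is not given in the sources used here, and arrays were compared within a time. Array medians lay between 7.13 and 7.31. The mean of the hybridization control probe sets was 11.35 to 12.18 on arrays of cows 1 and 4. It was 10.38 to 11.32 on those of cows 2, 3 and 5, and its part in differences between cows was not tested. Precision is set by how many arrays a group holds.

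Probe sets were named through the GEO platform annotation, and 112 control probe sets were left out. Each time was fitted by limma 3.58.1 (R 4.3.3) with 4 groups, with 4 residual degrees of freedom at 24 h and 8 at 48 h, after the design in the study's methods, and again with the cow as a block. Deviations from group means correlated within cows, by 0.521 on average at 24 h (12 pairs, 0.332 to 0.706) and 0.448 at 48 h (18 pairs, 0.0624 to 0.837), and the labels name the cow. The fit without the block was also run on simulated data. These had independent arrays, so they do not test it under the correlation within cows. Members, gene lists and tests were chosen with earlier results of these data known. Named in the text are members called in any comparison, the 8 largest changes of CNT against NC per time, the probe set of highest mean in each of 7 roles, and others chosen after their values were seen (BGN, COL1A1, COL2A1, COL5A3, COL4A4, COL6A2, LAMB1, LAMA4, HSPG2, ELN, POSTN). No sequence table was used here.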

Additional observations from a re-analysis of the deposited data

How the results depend on the processing

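Counts of called matrix probe sets depended on the cow block and on single glands. With the cow as a replicate block they were 5 (CNT against NC, 24 h), 3 (CNT against NC, 48 h), 3 and 5 (CF against CNT, 24 h and 48 h) and 2 and 5 (CFPD against CNT), and with the cow as a random block 5, 2, 3 and 4, and 2 and 4. No filter together with the replicate block, chosen after seeing the data, gave the same counts as the replicate block. No other call of the design changed with the replicate block. With all 20 arrays in 1 fit the 24 h counts were 2 for CNT against NC, 2 for CF and 1 for CFPD against CNT. With no limit on the fold change the 48 h counts were 4 for CNT against NC and 2 for CFPD against CNT. After quantile normalization within the time or median centring 0 were called for CF against CNT at 48 h. Alternatives chosen after seeing the data were to swap both treatment labels in cows 2 and 5, with 1 call for CF against CNT at 48 h, and the block fit without the CNT gland of cow 2, with 4 for CF and 3 for CFPD at 48 h. Leaving out an array or a cow gave 0 to 1 calls for CNT against NC at each time, 0 to 1 for CF and CFPD against CNT at 24 h, 0 to 2 for CF and 0 to 1 for CFPD at 48 h, and 0 in all other comparisons. The filter on the mean, no filter and a trended prior moved no count by over 1.5 times. An exchange of labels in cows 1 and 4, listed under another numbering of the cows, was not run.

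Some log2 fold changes of CNT against NC changed sign. Without the CNT gland of cow 2 these included BGN at 48 h (0.58 and 0.34 became -0.23 and -0.45). At 48 h COL17A1 was at -0.0484 after quantile normalization, -0.0687 after centring and -0.20 in the block fit without the CNT gland of cow 2, LAMB2 at -0.0162, -0.0699 and -0.14, COL6A1 at -0.0121 after centring and -0.11 in that block fit, and FMOD at -0.0871 in it. Leaving out an array or a cow gave at 48 h -0.29 to 0.60 for COL17A1, -0.14 to 0.50 for COL6A1, -0.45 to 0.52 for DCN, -0.31 to 0.85 for FMOD, -0.21 to 0.52 for LAMB2, -0.37 to 0.23 for LAMC1 and -0.89 to 0.13 for LUM, and at 24 h -0.54 to 0.16 for COL15A1 (probe set of lower mean), -0.47 to 0.12 for COL1A2 (S2 probe set), -0.56 to 0.82 and -0.81 to 0.32 for COL3A1, -0.59 to 0.37 for COL4A1 (S2 probe set) and -0.34 to 0.16 for SPARC. The cause was not tested. Probe sets with a low signal could not be tested.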
